A study of Mus musculus with 6 samples.

Results

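Accessible chromatin around Il2ra, Il15ra and Il2rb, 3 genes that encode receptor chains for the cytokines IL-2 and IL-15, was examined in mouse T helper cells. All peaks within a gene body or within 60 kb on either side of it were taken, and overlapping or adjoining peaks of the 6 lists were merged into elements. This gave 44 elements of 236017 in the genome, made of 206 peaks, with 24 elements around Il2ra, 15 around Il15ra and 19 around Il2rb. Il2ra ends 12.1 kb before Il15ra starts, so that 14 of the 15 Il15ra elements were also in the Il2ra window.

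The 6 libraries came from naive CD4 T cells of wild-type (WT in the titles) C57BL6/J mice. The labels give spleen, and the methods name spleens and lymph nodes. The cells were cultured in vitro under Th9, Th2 or Th17 conditions, with 2 libraries each. The titles number these 1 and 3, and they are called replicates here. Per the methods, the cells were activated with antibodies to CD3 and CD28. Per the methods, Th2 medium held IL-4, human IL-2 and an antibody to IFNγ, and Th9 medium held the same with TGFβ added. Th17 medium held IL-6, TGFβ, IL-23 and IL-1β with antibodies to IFNγ, IL-4 and IL-2. IL-2 was therefore supplied in the 4 Th9 and Th2 libraries and neutralised in the 2 Th17 libraries. This difference cannot be told apart from the other cytokines, nor from the identity of the subset. The methods name mice of both sexes and a range of ages in weeks, without saying which were used for each library. Each library is a whole culture that was not sorted for a cytokine. Nothing in the labels says whether libraries came from separate mice, so p-values measure only the spread between these libraries, which may be technical.

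The high-affinity receptor for IL-2 consists of an α chain encoded by Il2ra (CD25), a β chain encoded by Il2rb (CD122) and the common γ chain encoded by Il2rg. The α chain raises the affinity for IL-2, whereas the β and γ chains carry the signal through JAK1 and JAK3 to the transcription factor STAT5. The IL-15 receptor shares the β and γ chains and adds its own α chain, encoded by Il15ra, which presents IL-15 to neighbouring cells. STAT5 in turn binds enhancers of Il2ra, including sites in its long first intron, so that IL-2 raises the level of its own receptor in activated T cells.

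On mm10, Il2ra (ENSMUSG00000026770.5) lies on the plus strand at chr2:11642807-11693193, Il15ra (ENSMUSG00000023206.16) on the plus strand at chr2:11705290-11734317, and Il2rb (ENSMUSG00000068227.9) on the minus strand at chr15:78479256-78495271. Elements are named below by the distance of their centre from the annotated start of Il2ra, for both chromosome 2 genes, or of Il2rb, with negative distances upstream. The following sequences are shown because the results turn on these elements. They are the 250 bases before the starts of Il2ra and Il15ra that RefSeq gives on GRCm38.p6 (for Il15ra the first of 2), and the 300 bases at the centre of the stretch covered in most libraries for each element called or ranked by subset whose stretch holds no exon, for the −15.4 kb element of Il2rb, and for the widest element of Il2ra intron 1. Genomic stretches are given on the plus strand. Capitals mark every match, on either strand, to the STAT word TTCNNNGAA, the AP-1 word TGANTCA or the GATA word AGATAA.
Il2ra promoter, chr2:11642542-11642791: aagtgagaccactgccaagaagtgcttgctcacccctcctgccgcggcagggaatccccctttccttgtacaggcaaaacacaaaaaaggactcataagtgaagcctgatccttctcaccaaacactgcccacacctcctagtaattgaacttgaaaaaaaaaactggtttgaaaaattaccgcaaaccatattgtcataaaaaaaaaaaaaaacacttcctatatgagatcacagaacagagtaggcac
Il15ra promoter, chr2:11705043-11705292: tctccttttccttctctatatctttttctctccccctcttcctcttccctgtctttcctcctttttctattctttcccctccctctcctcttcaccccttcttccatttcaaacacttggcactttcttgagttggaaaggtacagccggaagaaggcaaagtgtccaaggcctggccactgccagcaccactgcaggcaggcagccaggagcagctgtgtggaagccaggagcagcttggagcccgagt
Il2ra upstream, −14.4 kb element, chr2:11628259-11628558: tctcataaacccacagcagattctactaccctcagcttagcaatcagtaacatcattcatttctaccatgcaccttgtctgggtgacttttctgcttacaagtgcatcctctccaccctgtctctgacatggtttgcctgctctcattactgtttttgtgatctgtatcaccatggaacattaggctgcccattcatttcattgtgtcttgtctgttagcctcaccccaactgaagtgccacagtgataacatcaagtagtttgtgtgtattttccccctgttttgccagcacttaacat
Il2ra intron 1, +2.65 kb element, chr2:11645390-11645689: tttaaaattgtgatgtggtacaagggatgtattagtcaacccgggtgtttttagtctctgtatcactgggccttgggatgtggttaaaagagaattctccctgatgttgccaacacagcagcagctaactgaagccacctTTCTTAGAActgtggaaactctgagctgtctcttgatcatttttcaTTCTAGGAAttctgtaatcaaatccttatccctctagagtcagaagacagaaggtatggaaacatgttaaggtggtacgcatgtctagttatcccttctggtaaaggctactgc
Il2ra intron 1, +4.49 kb element, chr2:11647249-11647548: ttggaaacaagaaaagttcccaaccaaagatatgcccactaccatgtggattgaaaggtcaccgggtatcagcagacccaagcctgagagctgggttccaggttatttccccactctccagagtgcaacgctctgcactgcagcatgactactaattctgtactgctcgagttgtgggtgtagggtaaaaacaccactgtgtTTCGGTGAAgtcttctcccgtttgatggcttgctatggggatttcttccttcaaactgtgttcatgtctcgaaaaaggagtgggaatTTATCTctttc
Il2ra intron 1, +10.1 kb element, chr2:11653385-11653684: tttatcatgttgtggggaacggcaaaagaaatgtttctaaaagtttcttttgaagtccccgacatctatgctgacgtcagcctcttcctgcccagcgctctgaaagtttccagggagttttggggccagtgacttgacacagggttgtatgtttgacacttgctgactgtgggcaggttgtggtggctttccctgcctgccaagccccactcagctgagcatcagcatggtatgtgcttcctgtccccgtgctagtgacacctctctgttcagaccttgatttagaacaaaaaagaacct
Il2ra intron 1, +18.4 kb element, chr2:11663906-11664205: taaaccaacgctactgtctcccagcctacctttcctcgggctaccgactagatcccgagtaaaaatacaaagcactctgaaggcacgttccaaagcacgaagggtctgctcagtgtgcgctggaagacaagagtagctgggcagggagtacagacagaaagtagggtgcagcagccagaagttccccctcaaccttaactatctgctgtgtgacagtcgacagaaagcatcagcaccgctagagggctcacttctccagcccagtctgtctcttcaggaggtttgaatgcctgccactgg
Il2ra body, +42.5 kb element, chr2:11687059-11687358: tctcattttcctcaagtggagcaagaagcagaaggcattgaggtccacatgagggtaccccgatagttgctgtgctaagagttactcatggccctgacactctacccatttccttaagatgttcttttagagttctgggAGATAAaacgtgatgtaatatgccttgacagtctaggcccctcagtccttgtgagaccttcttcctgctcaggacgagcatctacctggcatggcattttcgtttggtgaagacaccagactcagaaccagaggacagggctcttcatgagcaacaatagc
Fbh1, +102 kb element, chr2:11744537-11744836: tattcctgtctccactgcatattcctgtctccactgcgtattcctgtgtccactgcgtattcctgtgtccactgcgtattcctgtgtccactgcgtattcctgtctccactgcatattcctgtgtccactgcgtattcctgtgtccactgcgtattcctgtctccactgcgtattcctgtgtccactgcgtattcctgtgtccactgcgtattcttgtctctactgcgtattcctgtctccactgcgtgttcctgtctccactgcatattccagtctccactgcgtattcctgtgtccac
Il2rb upstream, −7.34 kb element, chr15:78502482-78502781: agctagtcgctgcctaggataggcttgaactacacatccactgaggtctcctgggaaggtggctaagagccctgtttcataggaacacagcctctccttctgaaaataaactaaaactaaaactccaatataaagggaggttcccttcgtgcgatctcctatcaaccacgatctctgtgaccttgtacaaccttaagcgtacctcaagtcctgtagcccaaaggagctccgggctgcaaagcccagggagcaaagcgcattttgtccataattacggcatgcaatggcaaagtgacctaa
Il2rb upstream, −15.4 kb element, chr15:78510250-78510549: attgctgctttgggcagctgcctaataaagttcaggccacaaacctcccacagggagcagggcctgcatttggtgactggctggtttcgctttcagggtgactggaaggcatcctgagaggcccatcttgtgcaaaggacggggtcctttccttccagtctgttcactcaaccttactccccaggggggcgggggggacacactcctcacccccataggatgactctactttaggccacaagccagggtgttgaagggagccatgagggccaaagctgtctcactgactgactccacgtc
Il2rb upstream, −52.7 kb element, chr15:78547591-78547890: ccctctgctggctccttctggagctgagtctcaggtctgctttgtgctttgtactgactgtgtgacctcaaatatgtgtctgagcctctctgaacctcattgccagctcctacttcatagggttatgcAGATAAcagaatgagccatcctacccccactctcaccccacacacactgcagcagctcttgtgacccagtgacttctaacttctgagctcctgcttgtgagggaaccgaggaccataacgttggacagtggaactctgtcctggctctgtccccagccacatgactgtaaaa

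Both elements of Il2ra intron 1 nearest to the start held the STAT word. The +2.65 kb stretch held it at bases 141 to 149 (TTCTTAGAA) and 187 to 195 (TTCTAGGAA), counted from the first base printed. The +4.49 kb stretch held it at bases 203 to 211 (TTCGGTGAA) and the GATA word, read on the minus strand, at bases 290 to 295. The GATA word was also at bases 140 to 145 of the +42.5 kb stretch and at bases 129 to 134 of the −52.7 kb stretch of Il2rb. None of the 3 words was in the other 8 sequences printed. Over all elements, the STAT word was in 6 of 25 stretches around Il2ra and Il15ra and in 2 of 19 around Il2rb, whereas 8.37% of all 236017 elements held it. The AP-1 word was in 4 of the 44 stretches against 12.8% of all elements, and the GATA word in 5 of the 44 against 11.3%. These matches describe letters, not binding, and were not tested.

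A library called an element where at least 1 bp of a peak of that library overlapped it. Each value given below as a percentile is the rank of the fold enrichment of a peak among all peaks of its own list, from 0 for the weakest to 100 for the strongest. Where a library had several peaks in an element, the highest was taken. The lists held 100317 to 142213 peaks and covered 80.7 to 118 Mb, and the lowest fold called ran from 1.71 in Th17 replicate 3 to 2.11 in Th9 replicate 1. Weak peaks could therefore be listed in one library and fall under the limit of another, and a missing peak is a lack of a call rather than closed chromatin. No read counts were given, so the depth behind each value is unknown. The promoters of the T cell genes Cd3e, Cd3d, Cd28 and Lck were called in all 6 libraries and that of Cd4 in 4 libraries, without a peak in Th9 replicate 1 or Th17 replicate 1. Among marker genes of CD8 T cells, B cells, myeloid cells and NK cells, 7 had no promoter peak in any library, Klrb1c had one in a single library, and the Cd8b1 promoter was called in all 6, at 51.0 and 51.3 in Th9, 68.8 and 66.4 in Th2, against 74.9 and 76.2 in Th17. Trac, the remaining T cell marker, is not annotated as protein-coding and was not assessed.

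**Figure D1:**
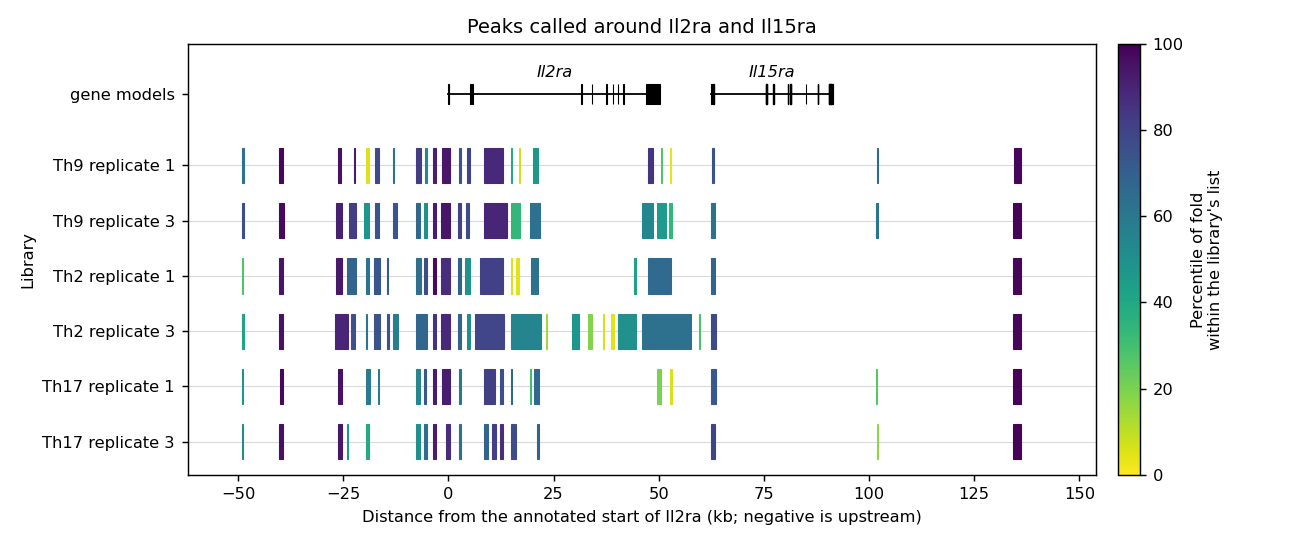
Peaks called in each library (rows) around Il2ra and Il15ra against the distance from the Il2ra start in kb, coloured by the percentile of their fold within the list, with gene models above (boxes are exons). The element at +10.1 kb was a single peak in each Th9 and Th2 library and 2 or 3 peaks in Th17, and peaks covered 56.5% of the Il2ra body in Th2 replicate 3.

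More sequence was called around Il2ra in Th9 and Th2 than in Th17. In the Il2ra window, peaks covered 18.4 and 30.1 kb in Th9 replicates 1 and 3, 28.6 and 50.7 kb in Th2, compared with 15.1 and 11.98 kb in Th17. Each of the 4 Th9 and Th2 libraries exceeded both Th17 libraries. Means were 24.3 ± 8.22 kb in Th9, 39.7 ± 15.7 kb in Th2 and 13.5 ± 2.21 kb in Th17 (SD, n = 2 each). The mean over Th9 and Th2 was 18.4 kb above the mean of Th17 (p = 0.2, two-sided exact permutation test with 15 arrangements of the libraries). The smallest p that this design allows is 0.0667, so no comparison of this kind could reach 0.05. Adjusted for the 9 comparisons made, p was 0.429 (Benjamini-Hochberg). Th2 replicate 3 contributed most, and without it the difference was 12.1 kb.

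The number of elements called differed less. It was 16 in Th9 replicate 1, Th9 replicate 3 and Th2 replicate 1, 23 in Th2 replicate 3, and 14 and 12 in Th17 (difference 4.75 elements, p = 0.267, exact permutation test, adjusted p = 0.429). Here too all Th9 and Th2 libraries exceeded both Th17 libraries. Such an order was not rare, since 25.8% of the windows of 21951 protein-coding genes had a longer called length, and 16.2% more elements, in each Th9 and Th2 library than in both Th17 libraries. The ratio of mean called length in Th9 and Th2 to that in Th17 was 2.36 for Il2ra, and 1.90 without Th2 replicate 3. Over 21286 windows of protein-coding genes with peaks in both Th17 libraries, the median ratio was 1.19, with 10% of windows under 0.817 and 10% over 1.69, and it was 1.09 for the whole lists. Without Th2 replicate 3 the median over these windows was 1.14, and the 10% limits were not taken.

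**Figure D2:**
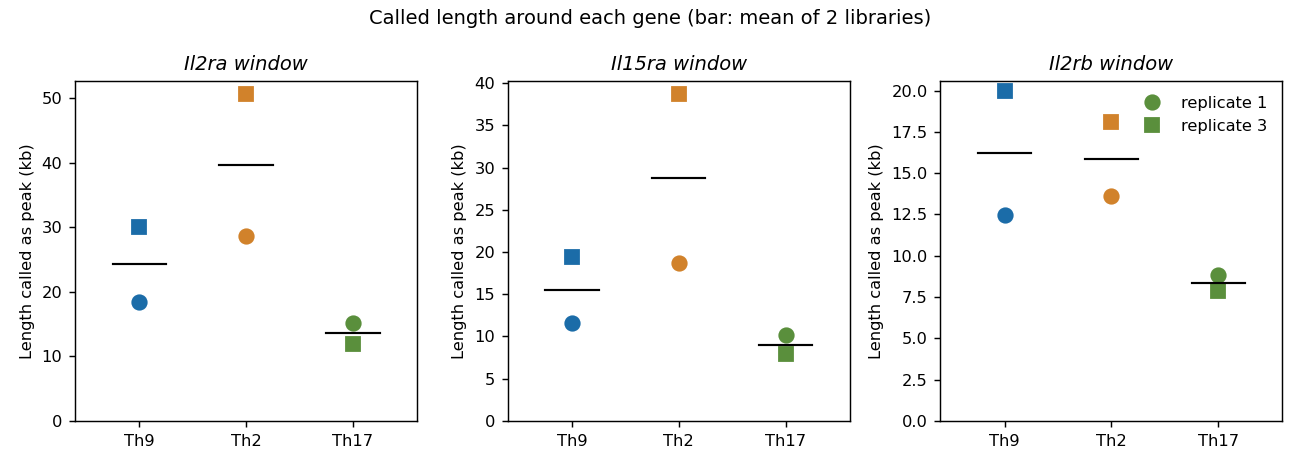
Length called as peak (kb) in the window of each gene in each library (circles, replicate 1; squares, replicate 3), with black bars at the mean of the 2 libraries of a subset. In each panel both Th17 libraries lay under all 4 Th9 and Th2 libraries, and Th2 replicate 3 lay highest in the first 2 panels.

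Most of the called length within the gene lay in intron 1, which spans 31.2 kb. Peaks covered 7.56 and 11.3 kb of it in Th9, 10.2 and 17.5 kb in Th2, against 5.33 and 4.68 kb in Th17, that is 14.97% to 17.1% of the intron in Th17 and 24.2% to 56.2% in the other libraries. From exon 2 to the gene end, Th17 had 0.752 kb in replicate 1 and no peak in replicate 3, Th9 had 1.04 and 3.33 kb, and Th2 had 3.38 and 10.7 kb. In the 60 kb upstream, values were 8.31 and 11.9 kb in Th9, 11.2 and 13.4 kb in Th2, compared with 6.58 and 5.79 kb in Th17. The order held in each of these 3 parts of the locus. In Th2 replicate 3, 56.5% of the whole gene body was called, against 9.79% to 29.6% in the other libraries, and 6 elements around Il2ra were called in that library alone, all between +23.4 and +59.7 kb. Of the 44 elements, 7 were seen only there, where 4.81% of all elements in the genome were called in that library alone. The 6 around Il2ra share a locus, and this count was taken up after its values were seen.

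The widest intron 1 element was centred at +10.1 kb. Its called length was 4428 and 5361 bp in Th9, 5430 and 6860 bp in Th2, against 3284 and 2588 bp in Th17. The Th9 and Th2 libraries each had 1 unbroken peak there, whereas Th17 replicate 1 had 2 peaks and Th17 replicate 3 had 3. Its percentiles were 89.0 and 89.1 in Th9, 81.0 and 79.2 in Th2, compared with 81.5 and 86.4 in Th17. The width called was thus longer in Th9 and Th2, while the rank of the highest peak was higher in both Th9 libraries than in the other 4. Both Th17 libraries ranked above both Th2 libraries, by a small margin for Th17 replicate 1.

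Closer to the start, the +2.65 kb element that carries the STAT word at 2 places was called in all 6 libraries. Its percentiles were 74.2 and 80.1 in Th9, 69.8 and 68.9 in Th2, against 59.9 and 62.8 in Th17. Its width was 534 and 770 bp in Th9, 697 and 744 bp in Th2, compared with 401 and 432 bp in Th17. Both measures were higher in every Th9 and Th2 library than in either Th17 library. The +4.49 kb element, with the STAT word once, was called in all 4 Th9 and Th2 libraries but in no Th17 library. There the percentiles were 80.2 and 77.2 in Th9 and 48.4 and 50.8 in Th2, with no overlap between these subsets. Elsewhere the STAT word was in the +135 kb element, which ranked higher in both Th17 libraries than in all others. It was in the +19.3 kb element of Il2rb, where the subsets overlapped. It was also at +39.0 kb and at +2.92 kb of Il2rb, called in Th2 replicate 3 alone. The −17.0 kb element held it and was called in all libraries but Th17 replicate 3. The −12.6 kb element held it and was called in both Th9 libraries and Th2 replicate 3.

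Intron 1 also held an element with the opposite order. The +18.4 kb element, 7332 bp wide, was at 47.0 and 63.0 in Th9, 62.1 and 54.3 in Th2, against 67.5 and 76.8 in Th17. Its called length was nevertheless longest in Th2 replicate 3, at 7226 bp, and shortest in Th17, at 1642 and 1632 bp. Both Th17 libraries had their highest peak in its first part, starting at +14.8 kb. There Th17 replicate 1 stood at 67.5 and replicate 3 at 76.8, whereas the peaks of Th9 in that part reached 38.7 and 34.0 and that of Th2 replicate 1 reached 5.58. In the later part, from +19.4 kb on, the highest peaks stood at 66.6 and 68.4 in Th17. Those of Th9 stood at 47.0 and 63.0 there and that of Th2 replicate 1 at 62.1. Th2 replicate 3 had a single peak over the whole element. Th17 cells were therefore not lower at every site of the intron.

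The Il2ra promoter was among the strong peaks of every list. It stood at 94.0 and 94.3 in Th9, 87.5 and 88.5 in Th2, compared with 91.8 and 87.4 in Th17. Th17 replicate 1 lay between the Th9 and Th2 libraries, and Th17 replicate 3 lay marginally under all of them. The promoter peak was 877 bp wide in Th17 replicate 3, against 1719 to 2183 bp in the other libraries. The element at the end of the gene, centred at +51.9 kb and overlapping the last exon, stood at 84.6 and 54.0 in Th9, 66.0 and 63.1 in Th2, but at 19.6 in Th17 replicate 1, with no peak in Th17 replicate 3.

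Upstream of Il2ra, 9 elements outside the promoter were found. The strongest, at −39.7 kb, was the promoter of Rbm17, which encodes a splicing factor, and stood between 94.9 and 98.2 in all libraries. The −24.5 kb element stood between 89.6 and 96.0, and the −3.30 kb element between 85.2 and 96.9, with the subsets overlapping in both. The −14.4 kb element was called in both Th2 libraries only, at 71.4 and 74.9, as was the +42.5 kb element, at 43.4 and 50.0. A pattern of this kind was found in 2.87% of all elements. The −19.3 kb element had the largest difference in mean percentile among the remaining elements called in all 6 libraries, −5.20, which was within the spread of its values, 5.20 to 62.1. The median percentile of the 11 elements of the Il2ra window called in all 6 libraries was 82.3 and 80.1 in Th9, 76.7 and 78.1 in Th2, against 72.7 and 79.5 in Th17 (difference 3.21, p = 0.333, exact permutation test, adjusted p = 0.429). Without Th2 replicate 3 or Th17 replicate 1 its sign turned, with a difference of −1.07 and −0.22.

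At Il15ra, only the promoter was called within the gene. The element covered the first exon and stood at 75.1 and 62.4 in Th9, 68.0 and 78.1 in Th2, compared with 72.4 and 79.5 in Th17, with the subsets overlapping. Called length within the 29.0 kb gene body was 0.603 to 1.04 kb, and no library had a further peak in it. Between Il2ra and Il15ra, Th2 replicate 3 had 7.83 kb called and the others 0.039 to 2.64 kb. Downstream of Il15ra lay a weak element at +102 kb inside Fbh1, which encodes a DNA helicase. It was called in both Th9 libraries (66.0 and 61.5) and both Th17 libraries (26.2 and 17.0) but in neither Th2 library, as were 0.296% of all elements. Its printed stretch repeats a short unit throughout, and regions present in many copies could be called as peaks. Whether this affected the calls was not tested. The promoter shared by Fbh1 and Ankrd16, at +135 kb, stood at 98.3 and 98.8 in Th9, 98.2 and 98.1 in Th2, against 99.1 and 99.1 in Th17, marginally higher in both Th17 libraries.

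The Il15ra window as a whole followed Il2ra, with which it shares most elements. The order did not hold at Il15ra itself. In the gene body the called length was 0.603 and 0.803 kb in Th9, 0.887 and 1.04 kb in Th2, against 1.04 and 0.927 kb in Th17. In the 60 kb downstream it was 2.07 and 2.33 kb in Th9, 1.90 and 1.945 kb in Th2, against 2.32 and 2.29 kb in Th17. The called length of the whole window was 11.5 and 19.4 kb in Th9, 18.7 and 38.7 kb in Th2, compared with 10.2 and 7.91 kb in Th17 (difference 13.1 kb, p = 0.2, exact permutation test, adjusted p = 0.429). Without Th2 replicate 3, which holds elements over the end of Il2ra, the difference fell to 7.52 kb, and that in the number of elements from 3 (p = 0.333, exact permutation test) to 1.5. The ratio of called length was 2.44, and 1.83 without that library. The median percentile of its 5 elements called in all 6 libraries differed by −0.20 (p = 1, exact permutation test), and by 0.02, 1.79 and 3.51 without Th9 replicate 1, Th2 replicate 1 and Th17 replicate 3.

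**Figure D3:**
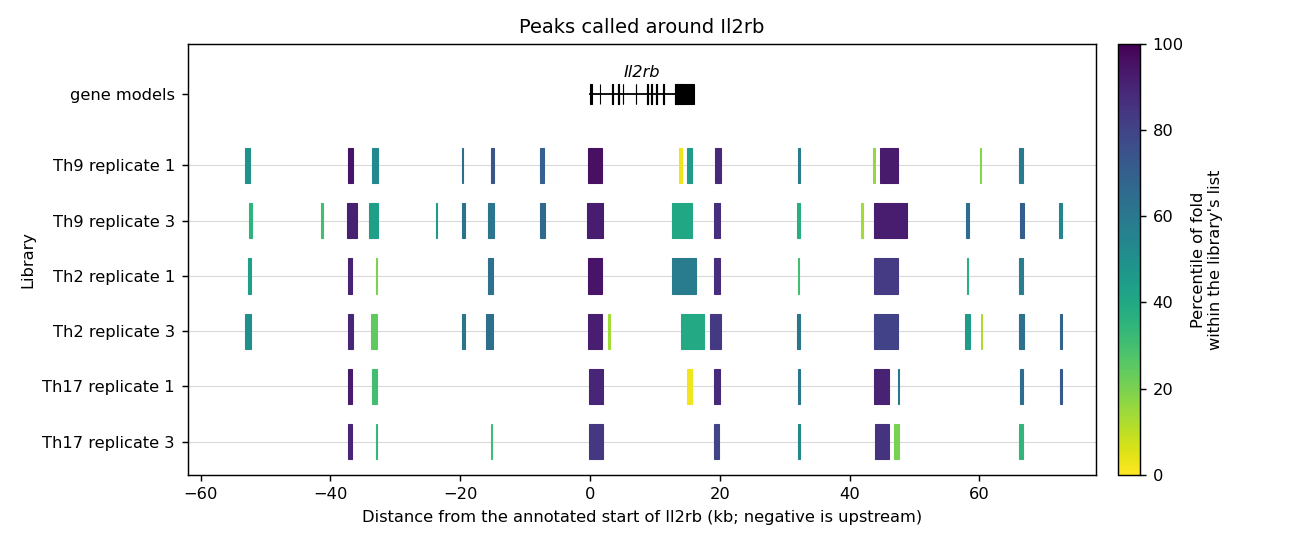
Peaks called in each library (rows) around Il2rb against the distance from its start in kb in the direction of transcription, coloured by the percentile of their fold within the list, with the gene model above (boxes are exons). Th17 libraries had 8 and 9 elements and Th9 and Th2 libraries 11 to 17, and the −52.7 kb element was missing in Th17.

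At Il2rb, the promoter itself ranked higher in Th9 and Th2 than in Th17. It stood at 95.8 and 92.2 in Th9, 94.6 and 91.8 in Th2, against 89.8 and 84.3 in Th17, without overlap. Its widths overlapped, at 2136 and 2165 bp in Th17 and 2156 to 2418 bp in the other libraries. The difference in mean percentile was 6.57, only slightly larger than the gap between the 2 Th17 libraries. The peak lay over exon 1 and the start of the gene, from about −0.2 to +1.9 kb in Th17 replicate 1.

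More distal elements were also called around Il2rb in Th9 and Th2. Called length in the window was 12.4 and 19.98 kb in Th9, 13.6 and 18.1 kb in Th2, compared with 8.86 and 7.87 kb in Th17, and all Th9 and Th2 libraries exceeded both Th17 libraries. Means were 16.2 ± 5.32 kb in Th9, 15.9 ± 3.18 kb in Th2 and 8.37 ± 0.704 kb in Th17 (SD, n = 2 each), a difference of 7.67 kb (p = 0.133, exact permutation test, adjusted p = 0.429). The number of elements was 13 and 17 in Th9, 11 and 15 in Th2, against 9 and 8 in Th17 (difference 5.5, p = 0.133, exact permutation test, adjusted p = 0.429). The ratio of called length was 1.92, and 1.83 without Th2 replicate 3. In the 60 kb upstream, the called length was 4.21 and 6.53 kb in Th9, 2.38 and 4.59 kb in Th2, compared with 1.66 and 1.36 kb in Th17.

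In the Il2rb body, the called length was 3.13 and 5.11 kb in Th9, 5.26 and 4.07 kb in Th2, against 2.67 and 1.95 kb in Th17. In the 60 kb downstream, Th9 had 5.11 and 8.34 kb, Th2 had 5.98 and 9.45 kb and Th17 had 4.53 and 4.55 kb. In all 3 parts of the locus each Th9 and Th2 library exceeded both Th17 libraries.

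Upstream, single elements were called in some subsets and not in others. The −52.7 kb element, with the GATA word, was called in all 4 Th9 and Th2 libraries at 35.1 to 50.3 but in no Th17 library. The −15.4 kb element stood at 73.5 and 61.1 in Th9 and 63.0 and 63.8 in Th2, but at 30.6 in Th17 replicate 3, with no peak in Th17 replicate 1. The −7.34 kb element was called in both Th9 libraries only, at 69.5 and 66.3, as were 1.31% of all elements. The −19.5 kb element was called in both Th9 libraries and Th2 replicate 3, at 61.3 to 65.2, and in no other. The −36.6 kb element, by contrast, was strong in all 6 libraries, between 89.3 and 94.9.

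Within the gene, the element over the last exon, centred at +15.1 kb, stood at 45.2 and 40.5 in Th9 and 58.3 and 39.5 in Th2. Th17 replicate 1 had a peak at 2.22 and Th17 replicate 3 none. Apart from these, a single weak peak of Th2 replicate 3, at 13.8, was called in the gene body, at +2.92 kb. Downstream, a strong element at +46.2 kb inside Tmprss6, a gene for a liver protease of iron balance, stood between 80.2 and 92.9 in all libraries. The remaining elements with a large difference were weaker and their values overlapped. The +66.4 kb element at the Kctd17 promoter ran from 58.1 to 70.4 in Th9 and Th2, with Th17 at 64.7 and 34.7. The +32.1 kb element inside Tmprss6 ran from 29.7 to 61.4 in Th9 and Th2, with Th17 at 60.9 and 53.3. The median percentile of the 7 Il2rb elements called in all 6 libraries differed by 0.65 (p = 0.733, exact permutation test), by −0.76 without Th9 replicate 1, by −2.92 without Th17 replicate 3 and by 9.74 without Th17 replicate 1.

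**Figure D4:**
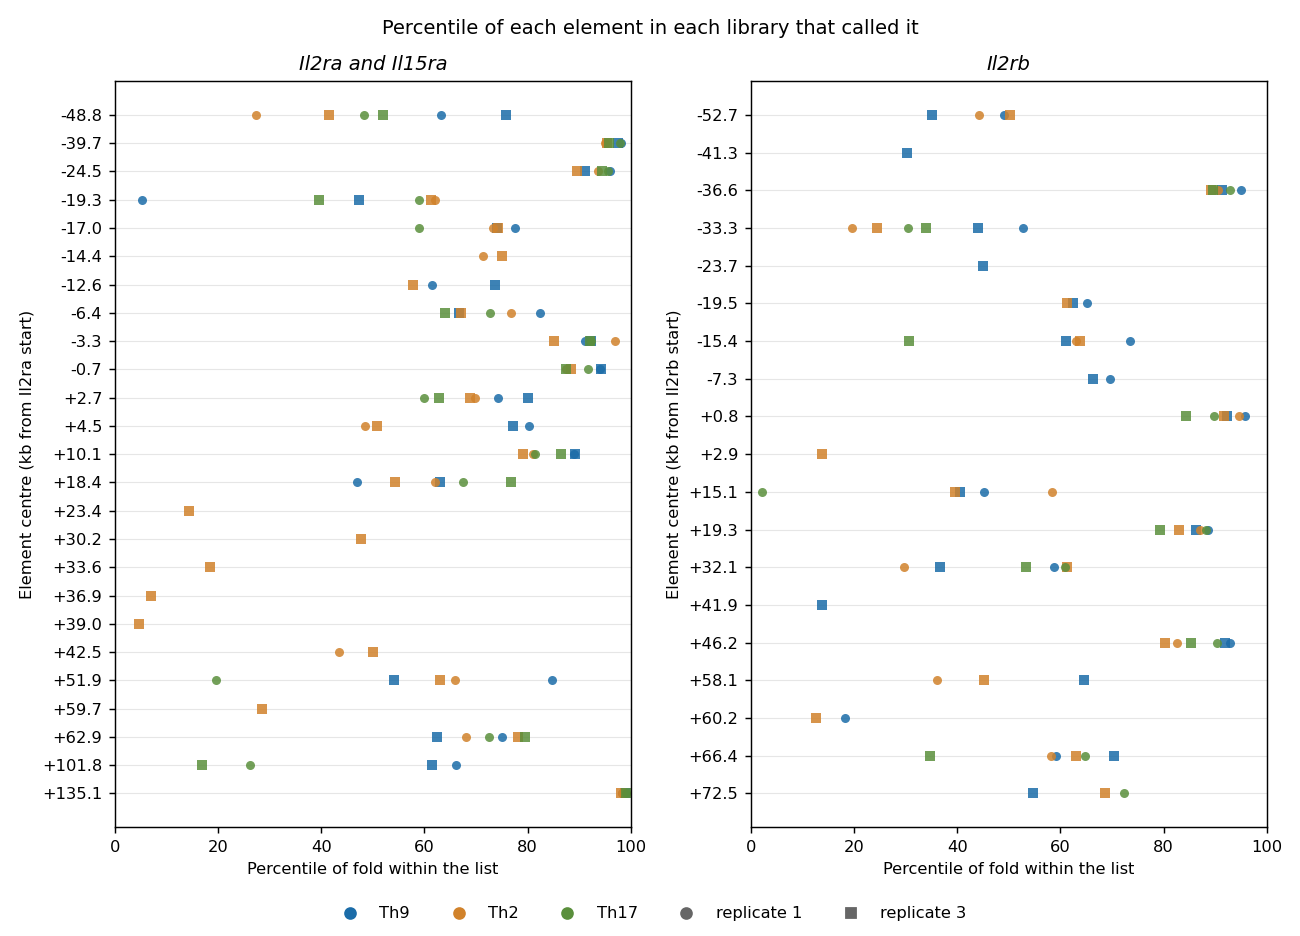
Percentile of fold of each of the 44 elements in each library that called it (blue, Th9; orange, Th2; green, Th17; circles, replicate 1; squares, replicate 3), ordered by distance in kb from the Il2ra start (left) or the Il2rb start (right). Among elements called in all 6 libraries, green points lie left of all others at +2.65 kb of Il2ra and at the Il2rb promoter. They lie right of all others at +18.4 kb and +135 kb of Il2ra. At +4.49 kb of Il2ra and −52.7 kb of Il2rb they are missing while all Th9 and Th2 points are present.

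Counted over the 44 elements, 2 were called in all Th9 and Th2 libraries but in no Th17 library, where 2.0% of all elements had this pattern, and none was called in both Th17 libraries alone, where 1.70% of all elements were. In all, 19 elements were called in all 6 libraries (43.2%, against 21.4% of all elements). Of these 19, 2 ranked higher in every Th9 and Th2 library than in both Th17 libraries, a pattern found in 10.8% of all elements called in all 6, and 2 ranked lower, found in 7.71%. For rank, these counts are close to the shares of the genome. The count of elements called in Th9 and Th2 alone rose to 5 without Th17 replicate 1 or without Th2 replicate 1. The count of those ranking higher rose to 7 without Th17 replicate 1 and to 5 without Th17 replicate 3. With fewer libraries these patterns are easier to meet. No share of all elements was taken with a library left out, so these rises cannot be set against the genome. In 9 of the 19 elements the called length was longer in every Th9 and Th2 library than in both Th17 libraries. This held for 13.2% of all elements called in all 6. In none of the 19 was the called length shorter, and no share of all elements was taken for that order. Of the 9, 7 lay around Il2ra. The 7 share a locus, and no test was made of these counts.

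**Figure D5:**
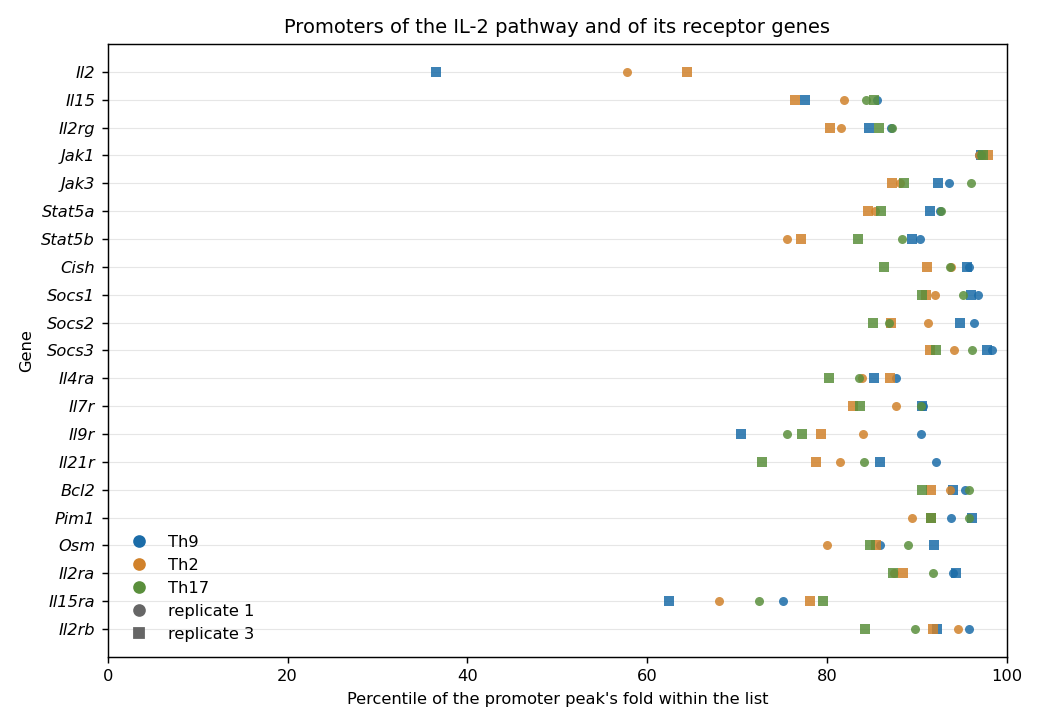
Percentile of fold of the promoter peak within each library's list for 18 other genes of the IL-2 pathway and the 3 receptor genes (blue, Th9; orange, Th2; green, Th17; circles, replicate 1; squares, replicate 3). The Il2 promoter has no peak in 3 libraries, both Th17 libraries included, and green points lie left of all others for Socs2, Il4ra and Il2rb.

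The remaining genes of the IL-2 pathway were compared by their promoters, from 1000 bp before to 100 bp after any annotated start. Of 18 such genes, 17 had a promoter peak in all 6 libraries, as did 58.7% of protein-coding genes. The exception was Il2, the ligand, which was called at 36.5 in Th9 replicate 3 and at 57.7 and 64.4 in Th2, and in neither Th17 library nor Th9 replicate 1. The promoter of Il15, the other ligand, stood between 76.4 and 85.6 in all libraries. The shared chain Il2rg was at 87.1 and 84.6 in Th9, 81.5 and 80.3 in Th2, against 87.3 and 85.8 in Th17, so Th17 lay at or above most Th9 and Th2 libraries, unlike at Il2rb.

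Only 2 of the 17 promoters ranked higher in every Th9 and Th2 library than in both Th17 libraries, and none ranked lower, where 9.01% and 5.55% of promoters called in all 6 libraries did so. Socs2, an inhibitor of cytokine signalling, was at 96.3 and 94.8 in Th9, 91.2 and 87.1 in Th2, compared with 86.9 and 85.1 in Th17. Il4ra, the receptor chain for IL-4, was at 87.7 and 85.2 in Th9, 83.9 and 87.0 in Th2, against 83.5 and 80.2 in Th17. In both, the margin between the closest Th2 and Th17 libraries was smaller than the gap between libraries of the same subset. Cish, another inhibitor that STAT5 induces, was at 95.8 and 95.6 in Th9, 93.8 and 91.1 in Th2, compared with 93.7 and 86.4 in Th17, with overlap. The kinase Jak1 was at 96.9 to 97.9, with the subsets overlapping. The transcription factor Stat5a was at 92.5 and 91.5 in Th9, 85.4 and 84.6 in Th2, against 92.6 and 86.0 in Th17. Stat5b was at 90.3 and 89.4 in Th9, 75.5 and 77.1 in Th2, against 88.3 and 83.5 in Th17. At both Stat5 promoters, each Th2 library lay under every Th9 and Th17 library. The same order held at Il2rg, at Jak3 (88.1 and 87.2 in Th2, 88.5 to 96.0 in the others) and at Pim1 (89.5 and 91.5 in Th2, 91.6 to 96.2 in the others). No share of all promoters was taken for this order, which was taken up after its values were seen.

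The promoters whose 6 percentiles were nearest to those of each receptor gene, by Euclidean distance over the 6 libraries among 12299 genes with a promoter peak in all of them, differed between members. For Il2ra they were Rnf216, Litaf, Mrpl52, Anxa6 and Smad3, at distances of 2.18 to 2.63 percentile points. For Il15ra they included Ccnd1, Itga5, Slc6a21 and Trat1, at 5.30 to 9.66. For Il2rb they were Ralgds, Cd69, Nfatc2, Efcab9 and Stk10, at 3.49 to 4.06, of which Efcab9 and Stk10 had identical values in all 6 libraries. Cd69, an early activation marker of T cells, was at 94.2 and 91.3 in Th9, 93.2 and 89.3 in Th2, against 89.7 and 85.4 in Th17.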

How the data were processed

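ATAC-seq libraries were made with the Tn5 transposase from Th9, Th2 and Th17 cultures and sequenced as read pairs. Per the submitters' processing notes and the methods, the authors trimmed reads with Trim Galore 0.4.3, aligned them to mm10 with Bowtie2, removed duplicates with Picard, and set aside mitochondrial and poorly mapped reads. Peaks were called by the authors in each library on its own with MACS2 2.1.0 in broad mode on paired fragments, without a local background or an input. The peak cutoff is not given in the sources used here, and the lowest −log10 q in the deposited lists was 1.02. No shift for Tn5 cut sites was stated, and whole fragments were used, so peak edges may be off by a few bases. With a single genome-wide background, regions present in many copies could be called as peaks.

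Each deposited list gave a display score, which was not used, a fold enrichment over background (a linear ratio), and −log10 p and q. Fold was turned into a percentile within its own list (average rank), since folds of separately called lists are not comparable. The members and lists were chosen with earlier results of these data known.

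Peaks were joined across lists with pandas 2.3.3 and numpy 2.4.6 (Python 3.11.15). Chromosome lengths were checked against GRCm38.p6, and 0 peaks lay past a chromosome end. Genes came from the basic GENCODE M21 set. RefSeq promoter sequences were matched by symbol for 2 of the 3 genes, Il2rb having no entry.

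Number of elements, called length and median percentile of elements called in all 6 libraries were compared between the 4 Th9 and Th2 and the 2 Th17 libraries by two-sided exact permutation tests, with Benjamini-Hochberg adjustment over 9 comparisons. The named elements were those at promoters or in bodies of the 3 genes, those with a subset pattern, and per window the 3 with the largest difference in mean percentile among elements called in all 6. Others are named from their place in the locus or for a sequence word and were chosen after their values were seen. The named genes were the receptor genes, the pathway genes, and the 5 genes nearest to each receptor gene. A marker gene and 1 of the genes nearest to Il15ra in percentiles are not reported here. Pattern counts and the permutation test were tested on simulated data. Alternatives were −log10 q of at least 5, fold of at least 4 or 2.2, lists of equal length, flanks of 30 or 100 kb, 50% of an element covered, bins of 500 bp, length-weighted percentiles, each library left out, and a replicate block.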

Additional observations from a re-analysis of the deposited data

How the results depend on the processing

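The number of elements and the called length stayed higher in Th9 and Th2 than in Th17 in all 3 windows under all 16 alternatives. The Il15ra window shares most of its elements with that of Il2ra. In the Il15ra body and the 60 kb downstream, the mean called length was not higher in Th9 or Th2 than in Th17. Not all of the alternatives were able to move both values. The replicate block and length-weighted percentiles leave both unchanged by construction, and bins leave the called length unchanged. The difference in called length was 6.19 to 22.9 kb for Il2ra, 3.92 to 18.0 kb for Il15ra and 2.85 to 9.69 kb for Il2rb. The difference in number of elements was small with stricter peaks. With fold of at least 4 it was 1, 0.5 and 0.75 for Il2ra, Il15ra and Il2rb, and with −log10 q of at least 5 it was 4, 1.5 and 1.75. With flanks of 30 kb it was 1.5 for Il15ra and 3 for Il2rb, and in bins, which are more numerous, 39.8, 28 and 21.5. Same-numbered libraries of Th9 and Th2 deviated together only weakly (r = 0.168 over 50493 elements called in all 6 libraries), and those of Th17 did not (0.031 with Th9, −0.01 with Th2), so the numbers were not taken as pairs. With a replicate block, under which the smallest p is 0.111, the called length differences of 18.4, 13.1 and 7.67 kb for Il2ra, Il15ra and Il2rb had p = 0.222, 0.222 and 0.111 (exact permutation test), and the number of elements p = 0.333, 0.444 and 0.111. The block changed no call, since none could pass.

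The median percentile was less stable, and the cause was not tested. For Il2ra its difference turned to −3.95 with −log10 q of at least 5, −1.08 with lists of equal length, −0.21 with flanks of 100 kb and −1.29 with 50% of an element covered, and ran from −1.07 to 4.08 with each library left out. For Il15ra it turned to 9.48 with fold of at least 2.2, 5.45 in bins and 0.32 with length weights, and ran from −3.75 to 3.51 with each library left out. For Il2rb it turned to −0.89 with lists of equal length and −3.12 with flanks of 100 kb, and ran from −2.92 to 9.74 with each library left out.

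Counts of elements by pattern were small and moved. No share of all elements was taken under the alternatives, and a pattern is easier to meet with a library left out. Those called in all Th9 and Th2 but no Th17 library, 2 in the report, were 1 with −log10 q of at least 5 or 30 kb flanks, 0 with fold of at least 4, 4 with equal lengths, 100 kb flanks or 50% covered, 17 in bins, and 2 to 5 with each library left out. Those in Th17 alone, 0 in the report, were 2 with 100 kb flanks. Elements ranking higher were 1 with −log10 q of at least 5, equal lengths or 50% covered, 0 with fold of at least 4, 11 in bins, and 2 to 7 with each library left out. Elements ranking lower were 0 with either fold limit, 1 with equal lengths, 30 kb flanks or 50% covered, and 7 in bins.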
